A study of Elaeis guineensis with 58 samples.

Results

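The 200 genes described here are those whose transcript level differed most from palm to palm within 1 collection of oil palm (Elaeis guineensis) leaves. They were taken from the 32 palms supplied by agency L1. Of 27986 gene rows in the count tables, 27805 carried a LOC identifier, and 13304 of these had at least 10 counts in every L1 library and a mean CPM of at most 300 (CPM, counts scaled to the sum of all gene rows of a library). These 13304 rows, called all rows below, were ranked by the standard deviation (SD) of log2(CPM+1) over the L1 palms, and the first 200 are the members. The L1 values thus chose the members, so every L1 value below is a description, and tests are read only where L2 libraries, which the choice did not use, are compared.

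The study profiled the spear leaf, the youngest, still folded frond, of ortets, the palms from which tissue is taken for cloning. Ortets were grouped by how many embryoid lines their tissue had given in culture before. Libraries were made with a QuantSeq forward kit, which counts the 3' ends of polyadenylated transcripts, and replicates were separate palms. L1 held 15 low palms, with 1 to 48 lines and a median of 2, and 17 zero palms, all extracted with CTAB. The genotype label was Dumpy Avros for 7 low and 5 zero palms of L1 and Dumpy Yangambi Avros for 8 low and 12 zero palms. L2, extracted with the InnuPREP kit, held 8 high palms with 91 to 534 lines, 6 low palms with 2 to 37 lines and 6 zero palms. The high palms were 6 Jen Avros (palms 1 to 6), 1 Yangambi_C (palm 7) and 1 Jen Avros Yangambi (palm 8). The low palms were 1 Jen Avros (palm 1), 1 Yangambi_C (palm 3) and 4 Yangambi_B, and all 6 zero palms were Yangambi_A. A second, CTAB library was made for 6 L2 palms, 2 from each group. Agency, genotype and read length all differ between L1 and L2, and extraction differs as well where L1 stands beside L2 InnuPREP libraries. These cannot be told apart wherever levels of both agencies are set side by side.

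Transcript levels of most genes are similar between plants of a kind, and a smaller number of genes differ widely. In Arabidopsis, genes that respond to the environment are known to be frequent among those that differ widely. Genes under common control tend to move together across individuals, and a set that does so is called a co-expression module. The sources used here pair none of the LOC identifiers with a product name, so no member can be given a role, and the cell types of the leaf could not be checked by their markers. In a whole-leaf extract, fewer cells of a type and less RNA per cell cannot be told apart.

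Total gene counts ran from 3943437 to 9685451 in L1. Plastid rows took 3.87% to 15.5% of these counts, and reads with several alignments made up 3.40% to 38.7% of each table. In the L2 InnuPREP libraries the plastid share ran from 1.64% to 4.69% and the multi-mapped share from 9.83% to 19.8%. The members together held 1.09% to 3.53% of L1 counts, with a median of 1.56%. They were somewhat more abundant than other rows, with a median of the mean L1 level of 62.2 CPM, against 27.7 CPM over all rows.

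Over the L1 palms the members' SD ran from 1.27 to 2.59 with a median of 1.42, against a median of 0.469 over all rows. The palm with most transcript had at least 18.2 times the CPM of the palm with least for every member. The median of that ratio was 63.6, and it reached 100 or more for 42 members. Counting error alone would give the members a median SD of 0.131, and each member's SD was at least 5.10 times its own counting SD. The cut was not at a natural break. LOC105038978, LOC105035460 and LOC105058607, the last 3 members, had SDs of 1.266, 1.265 and 1.265, and LOC105037876, LOC105033083 and LOC105054898, the first 3 rows outside, each had 1.262.

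The gene of largest SD, LOC105054588, ran from 4.89 CPM to 874 CPM in low palms, with a median of 19.2 CPM. In zero palms it ran from 2.06 CPM to 1542 CPM, with a median of 7.997 CPM. It lay at 164 CPM or more in 8 palms, low palms 5, 8, 9 and 11 and zero palms 6, 8, 9 and 11. The other 24 palms lay at 50.8 CPM or less, so both groups held palms on both sides of this gap. LOC105036026, second by SD, ran from 3.35 CPM to 1121 CPM in low palms (median 199.8 CPM) and from 1.82 CPM to 963 CPM in zero palms (median 90.3 CPM). The same 8 palms were at 17.9 CPM or less for it, as was zero palm 16, which was not among them, and low palm 1 was the highest. LOC105047941, the next by SD, ran from 8.87 CPM to 696 CPM in low palms (median 79.5 CPM) and from 6.95 CPM to 4085 CPM in zero palms (median 48.8 CPM). Zero palm 8, at 4085 CPM, stood far above all other palms for this gene. LOC105049321, seventh by SD and in no module, was highest in low palm 14 at 423 CPM and lowest in zero palm 2 at 1.40 CPM. The other 6 of the first 10 by SD were LOC105043615, LOC105060893, LOC105054663, LOC105048817, LOC109505438 and LOC105035639, with SDs of 1.93 to 2.07, and for each of them the ranges of low and zero palms overlapped.

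Some members had a wide gap between their sorted values over the L1 palms. The values on 1 side of a gap could still be widely spread. How many of all rows hold such a gap was not counted, and a large SD makes wide gaps more likely. A gap of at least 1 on the log2(CPM+1) scale, with at least 3 palms on each side, was found in 31 of the 200 members, and the median of each member's largest gap was 0.63. The largest gap, 2.09, was in LOC105043615, which stood at 2.90 CPM to 7.52 CPM in low palms 9, 10, 11 and 15 and at 35.2 CPM to 757 CPM in the other 28 palms. LOC105057709 had a gap of 1.98, with low palms 6 and 15 and zero palm 6 at 1.81 CPM to 2.47 CPM and all others at 12.7 CPM or more. Both of these genes were thus near the bottom of their range in a few palms only. Other members were high in a few palms only. LOC105042770 stood at 496 CPM in low palm 11, 173 CPM in low palm 9 and 167 CPM in zero palm 8, and at 51.6 CPM or less in the rest. LOC105035139 stood at 593 CPM to 707 CPM in low palms 1 and 7 and zero palms 3 and 13, and at 189.7 CPM or less in the rest.

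Single palms held many of the extremes. Low palm 11 had the highest value of 31 members and the lowest of 17, and low palm 9 had the highest of 22 and the lowest of 10. Low palms 6, 14 and 1 had the lowest values of 24, 21 and 20 members. All 5 of these palms carried the label Dumpy Yangambi Avros, as did 20 of the 32 L1 palms. Dumpy Avros palms held many extremes too, such as low palm 10, with the highest value of 11 members and the lowest of 14. Ranked without low palm 11, 175 of the 200 genes were again among the first 200.

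**Figure D1:**
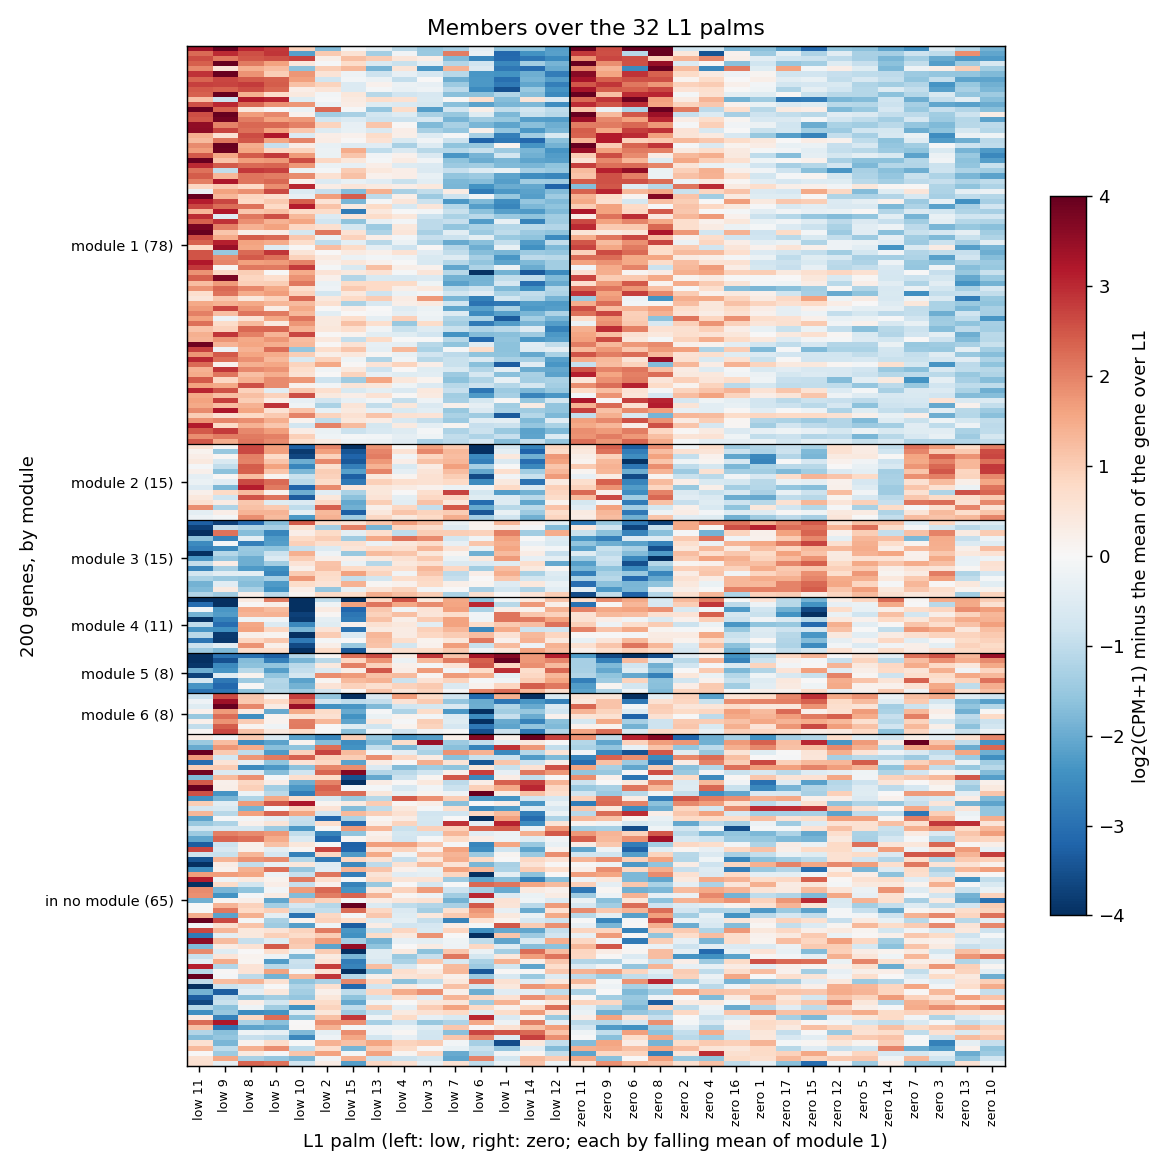
Each row is 1 of the 200 members, ordered by module, and each column 1 L1 palm, low palms to the left of the line and zero palms to the right, each ordered by falling mean of module 1. Colour is log2(CPM+1) minus the gene's mean over L1, stopping at 4 in either direction. The block of 78 genes of module 1 is high in the first palms of both groups, where the 8 genes of module 5 are low.

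The members rose and fell together in sets. Clustered by 1 minus Pearson's r of log2(CPM+1) over the 32 palms (average linkage, height 0.5), 135 of the 200 fell into 6 modules of at least 8 genes, with 78, 15, 15, 11, 8 and 8 genes, and 65 fell into none. Of all pairs of members, 9.73% had an r of at least 0.7 in L1, against 1.01% of all pairs of rows. An r of -0.7 or below was found in 2.74% of member pairs and 0.308% of all pairs. The modules are clusters of the same values that chose the members, and the points of each r share library depth and composition, so no test is attached to them. The first principal component of the members held 38.8% of their variance over L1. It followed the first component of all rows with an absolute r of 0.91 over the 32 palms.

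Module 1, the largest, had a mean log2(CPM+1) of 3.63 to 7.65 over L1 palms, with a median r of 0.72 between its genes. Its mean was 6.83 or more in low palms 11, 9, 8 and 5 and zero palms 11, 9, 6 and 8, and 3.94 or less in low palms 6, 1, 14 and 12. The 3 genes nearest to its mean were LOC105052000, LOC105045379 and LOC105043748, with an r of 0.97 to 0.98 to the mean of the other members. LOC105045379 ran from 6.29 CPM to 325 CPM in low palms (median 27.9 CPM) and from 7.95 CPM to 319 CPM in zero palms (median 28.1 CPM), so the groups covered nearly the same range. Outside the members, 377 of 13226 rows had an r of at least 0.7 to the mean of module 1 and 559 an r of -0.7 or below. Modules 5 and 3 ran against it, with an r of -0.90 and -0.65 over the 32 palms. LOC105036026, the second gene by SD, stands in module 5 with LOC105047270 and LOC105034750 as its other central genes. Module 3, centred on LOC105057272, LOC105044083 and LOC105056549, ran from 3.75 in low palm 11 and zero palm 6 to 7.95 in zero palm 15.

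Modules 2, 4 and 6 were nearly unrelated to module 1 or less closely tied to it, with an r of 0.03, -0.33 and 0.39. Module 2, centred on LOC105041053, LOC105033183 and LOC105057212, was highest in low palm 8 at 7.25 and lowest in zero palm 6 at 2.65. Module 4, centred on LOC105058592, LOC105032961 and LOC105055911, stood between 2.43 and 4.79 in low palms 9, 10, 11 and 15 and zero palms 15, 16 and 17, and at 5.59 or more elsewhere. Module 6, centred on LOC105038191, LOC105041939 and LOC105034737, was highest in low palm 9 at 8.23 and lowest in low palm 6 at 2.54.

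Genes that carry a symbol in the tables, none of them members, were set beside the module means. GST, named for glutathione S-transferase, an enzyme of detoxification, followed module 4 over L1 with an r of 0.88 (n = 32 palms) but not over the 20 L2 InnuPREP palms, with an r of -0.42. AHP1 ran against module 6 with an r of -0.76 in L1 and -0.24 in L2. The plastid gene psaB, which encodes a core protein of photosystem I, followed module 6 with an r of 0.73 in L1 and 0.27 in L2. The other photosystem I genes did not all do so. In L1 psaJ had an r of 0.63, but psaA, psaC and psaI had 0.24, 0.04 and 0.08. For module 1 the symbol gene of largest absolute r was CPRZ, at -0.65 in L1 and 0.15 in L2. DRM ran against module 3 in both agencies, with an r of -0.55 in L1 and -0.84 in L2. In L1 module 3 had larger absolute r with CPRF, CPRZ and CHI2, at 0.75, 0.73 and 0.68, against 0.29, 0.35 and 0.57 in L2. Others left out above include LIP1 with module 4, at 0.72 in L1 and 0.15 in L2, and trnS-GCU with module 6, at 0.75 in L1 and 0.08 in L2. These relations are descriptions over palms that share libraries, for some of 15 nuclear and 84 plastid symbol genes. Group means were not taken out for any of them, so differences between groups and genotypes enter each r.

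**Figure D2:**
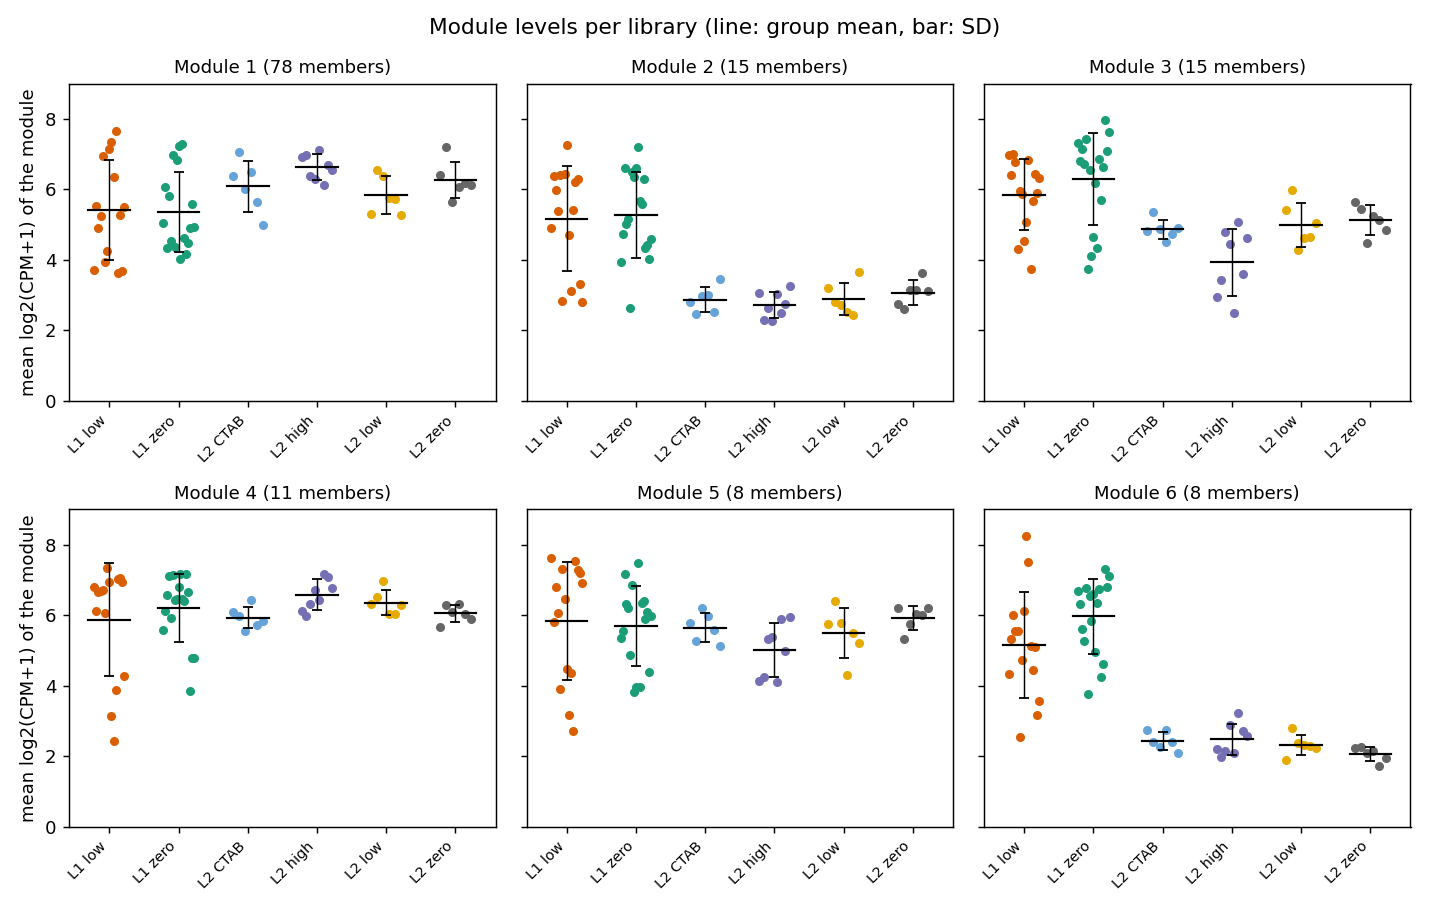
Each panel shows 1 module and each point 1 library, with the mean log2(CPM+1) of the module on the y axis and the groups on the x axis, L2 CTAB libraries apart from L2 InnuPREP libraries. Lines are group means and bars SDs. L1 low and zero palms overlap in every module, with more than 1 low palm below all zero palms in modules 1, 4, 5 and 6. Modules 2 and 6 lie lower in every L2 group than in most L1 palms.

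The embryogenesis group took a median of 1.16% of a member's variance in L1, against 1.88% over all rows, and at most 41.4%, in LOC105058869. The genotype label took a median of 2.97%, against 2.26% over all rows, and at most 28.3%, in LOC105053406. The SD of LOC105043615 was 1.76 after group and genotype means were taken out, against 2.07 before. In edgeR's quasi-likelihood test over 18434 genes, 0 of the 200 members were called between low and zero palms at an adjusted p below 0.05, and percent called over all genes was 0. At an unadjusted p below 0.05 stood 19 members and 1337 genes in all (7.25%), and DESeq2 called 0 members. Between Dumpy Avros and Dumpy Yangambi Avros palms 0 members and 0% of 18689 genes were called by edgeR, with 34 members and 1315 genes (7.04%) at an unadjusted p below 0.05. The mean of module 1 was 5.41 ± 1.41 over the 15 low palms and 5.37 ± 1.13 over the 17 zero palms (± SD). By label it was 5.72 ± 1.23 over the 12 Dumpy Avros palms and 5.19 ± 1.25 over the 20 Dumpy Yangambi Avros palms (± SD), a difference smaller than either SD. The group difference was largest in module 6, at 5.15 ± 1.505 in low and 5.97 ± 1.06 in zero palms, also smaller than the SDs. These SDs give the spread between palms and not the error of a mean, and differences of module means were not tested. Since large spread chose these genes, nothing is read from the absence of calls.

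The plastid share of counts took a median of 3.15% of a member's variance, against 3.21% over all rows. The multi-mapped share took 1.41% against 3.09%, and the total of gene counts 1.44% against 3.45%. Module means had an r of -0.16 to 0.33 with the plastid share and of -0.15 to 0.11 with the multi-mapped share (n = 32 palms, description only). With the plastid share as a continuous term, edgeR called 4 members, against 3.8% of all genes tested, with 1 member higher (all genes 1.6%) and 3 lower (all genes 2.2%) at a higher share. They were LOC105059044 (higher) and LOC105036011, LOC105047494 and LOC105056942 (lower). With the multi-mapped share, 1 member was called, against 3.26% of all genes tested, with 0 members higher (all genes 2.41%) and 1 lower (all genes 0.849%). It was LOC105036011. As these fits use the L1 values that chose the members, the counts are given as a description and nothing is read from them.

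The members were also among the more variable genes in L2, where they had not been chosen. Within the 3 groups of the 20 L2 InnuPREP palms their SD had a median of 0.834, against 0.365 over all rows. It lay above the median of all rows for 195 of 200 members, and 167 of them (83.5%) were among the 1330 most variable of the 13304 rows. An SD of at least 1 was found in 63 members (31.5%), against 1.60% of all rows. The 5 below the median were LOC105032887, LOC105058407, LOC105038191, LOC105033078 and LOC105033183. LOC105033183, a central gene of module 2 in L1, held to 33.6 CPM to 62.9 CPM in high palms, 38.2 CPM to 49.9 CPM in low palms and 30.1 CPM to 47.9 CPM in zero palms. In L1 it had run from 22.1 CPM to 412 CPM in low palms and from 28.8 CPM to 436.5 CPM in zero palms.

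**Figure D3:**
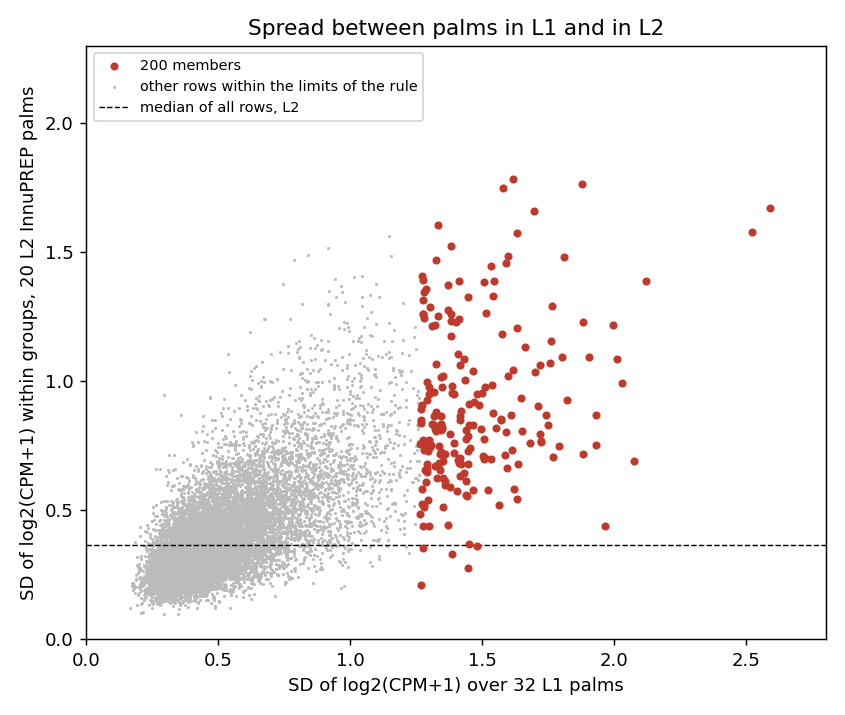
Each point is 1 row, with the SD of log2(CPM+1) over the 32 L1 palms on the x axis and the SD within groups over the 20 L2 InnuPREP palms on the y axis. Members are red and other rows within the limits of the rule grey, and the dashed line is the L2 median of all rows, 0.365. Of the 200 members, 195 lie above that line.

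Pairs and modules were picked for their r in L1, so a lower r in L2 follows in part from the choice. Each L2 r here was taken over all 20 InnuPREP palms with group means left in, so differences between groups and genotypes enter it. Over all member pairs the median r was 0.05 in L1 and 0.03 in L2. Of 1936 member pairs with an r of at least 0.7 in L1, the median r over the 20 L2 InnuPREP palms was 0.44, 44.2% had an r above 0.5 and 12.9% an r below 0. The 545 pairs with an r of -0.7 or below in L1 had a median r of -0.25 in L2. The median r between genes of a module in L2 was 0.44 in module 3, 0.41 in module 5 and 0.29 in module 1, but 0.11 in modules 2 and 6 and 0.08 in module 4, and LOC105048817 and LOC105038191 of module 6 were near 0 CPM in most L2 palms. Module 1 ran against module 5 with an r of -0.90 in L1 but -0.35 in L2, and against module 3 with -0.65 and -0.46. Modules 3 and 5 ran together in both agencies, with an r of 0.59 in L1 and 0.80 in L2. Modules 4 and 6 ran against each other in L1, with an r of -0.50, and together in L2, with an r of 0.74.

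Levels differed as well. The mean of module 6 ran from 1.73 to 3.22 over the L2 InnuPREP palms and from 2.10 to 2.75 in the 6 L2 CTAB libraries, against 2.54 to 8.23 in L1. Module 2 ran from 2.26 to 3.67 and from 2.47 to 3.45 in these L2 libraries, against 2.65 to 7.25 in L1. The lower level was therefore seen with both extractions of L2. LOC105048817, eighth by SD in L1 and in module 6, stood at 2.33 CPM to 489.6 CPM in L1 low palms and 3.14 CPM to 549 CPM in L1 zero palms. In L2 it reached at most 2.33 CPM in a high palm, 0.239 CPM in a low palm and 0.242 CPM in a zero palm. It failed the filter on low counts there, as did LOC105037043, LOC105032510 and LOC105038191.

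Between high palms and the zero-low palms of L2, 74 of the 200 members changed, 36 higher and 38 lower. Of the 200, 196 passed the filter on low counts. The members' share of 37% was near that of all genes tested, of which 40.5% were called, 20.3% higher and 20.3% lower. A change of at least 2-fold was called in 32 members in each direction, while 6.74% of all genes tested rose and 8.83% fell by as much. The median absolute log2 fold change was 0.70 among members tested and 0.42 among all genes tested. The direction differed between the sets. In module 1, 26 of 78 genes rose and 3 fell in high palms, with a median log2 fold change of 0.59. In module 3, 0 of 15 rose and 8 fell, with a median of -0.90, and in module 5, 0 of 8 rose and 4 fell, with a median of -0.59. The called genes of module 1 were thus mostly higher and those of modules 3 and 5 lower in high palms. Genes of a module move together in part, so these counts are not independent, and the module means overlapped. In high palms 1, 2, 5 and 7 the mean of module 3 was 2.50 to 3.59. High palms 3, 4, 6 and 8 had 4.46 to 5.09, low palms 4.27 to 5.99 and zero palms 4.47 to 5.64. Module 1 stood at 6.12 to 7.12 in high, 5.26 to 6.56 in low and 5.64 to 7.19 in zero palms. For module 5 these were 4.12 to 5.94, 4.30 to 6.41 and 5.33 to 6.21. Module 1 had also run against modules 3 and 5 across L1 palms. In module 4, 3 of 11 rose and 1 fell, in module 2, 0 of 15 rose and 4 fell, and in module 6, 0 of the 5 genes tested were called. Of the members in no module, 7 rose and 18 fell.

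Genotype follows the groups closely in L2, and only Jen Avros and Yangambi_C hold palms of more than 1 group. With genotype as a term, 15 members (7.5%) and 5.62% of all genes tested were called. For palms of the other labels, group and genotype cannot be told apart. The fit with genotype thus sets high palms 1 to 7 only against low palm 1 (Jen Avros) and low palm 3 (Yangambi_C). No zero palm enters that difference, nor does high palm 8, the only Jen Avros Yangambi palm. The difference is therefore not the comparison of all high with all zero-low palms.

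The 4 members that fell most in high palms were all in no module. LOC105055259 stood at 2.63 CPM to 40.3 CPM in high palms with a median of 5.30 CPM, against 12.5 CPM to 380.5 CPM in low palms (median 277 CPM) and 171 CPM to 436 CPM in zero palms (median 386 CPM). Its log2 fold change was -4.94 ± 0.61 (SE), with an edgeR adjusted p of 1.21e-05. With genotype as a term it was -4.76, with an adjusted p of 0.000546 by edgeR. That value sets high palms other than palm 8 against low palms 1 (374 CPM) and 3 only. Without high palm 8 and without that term the log2 fold change was -5.63. The high and zero palms did not overlap. Among low palms, palm 3 alone, at 12.5 CPM, lay within the range of the high palms, and it shares the label Yangambi_C with high palm 7, at 4.99 CPM. LOC105046587 stood at 3.04 CPM to 211 CPM in high palms (median 18.9 CPM), against 80.2 CPM to 493 CPM in low palms (median 265.5 CPM) and 359 CPM to 2785 CPM in zero palms (median 2074 CPM). The log2 fold change of high over zero-low palms was -4.91 ± 0.95, with an edgeR adjusted p of 0.000429. With genotype as a term it was -3.95, with an adjusted p of 0.00443 by edgeR, and without high palm 8 it was -6.23. The 3 groups were stepped, with the low palms between the others, and high palm 8, at 211 CPM, was the only high palm within the range of the low palms. In L1 the medians of this gene were 7.46 CPM for low palms and 5.71 CPM for zero palms, far from the level of L2 zero palms.

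LOC105055554 stood at 3.29 CPM to 495 CPM in high palms (median 20.6 CPM), against 74.8 CPM to 564 CPM in low palms (median 279.9 CPM) and 351 CPM to 3287 CPM in zero palms (median 1866 CPM). This gave a log2 fold change of -3.89 ± 0.97, with an edgeR adjusted p of 0.00341. With genotype as a term it was -5.25, with an adjusted p of 0.00203 by edgeR. Without high palm 8 and without that term it was -5.74, and high palm 8 enters neither of these values. High palm 8, at 495 CPM, again overlapped the other groups, while the other 7 high palms lay at 39.9 CPM or less. LOC105047160 stood at 0.670 CPM to 10.2 CPM in high palms (median 2.42 CPM), against up to 81.9 CPM in low palms (median 4.04 CPM) and 7.53 CPM to 183 CPM in zero palms (median 111.6 CPM). The log2 change was -4.11 ± 0.95, with an edgeR adjusted p of 0.00195, and with genotype as a term it was -2.10 with an adjusted p of 0.334. The groups overlapped, with 4 of 6 low palms and zero palm 2 within the range of the high palms.

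Of the 4 members that rose most in high palms, LOC105047494, LOC105037705 and LOC105032802 belong to module 1. LOC105047494 stood at 11.0 CPM to 180.3 CPM in high palms (median 60.8 CPM), against 4.22 CPM to 19.2 CPM in low palms (median 6.09 CPM) and 1.42 CPM to 10.7 CPM in zero palms (median 4.33 CPM). Its log2 fold change was 3.34 ± 0.45, with an edgeR adjusted p of 2.40e-05. High palm 8, at 11.0 CPM, was the only high palm within the range of the low palms. LOC105037705 stood at 145 CPM to 1493 CPM in high palms (median 710.4 CPM), against 40.1 CPM to 191 CPM in low palms (median 129.8 CPM) and 19.3 CPM to 124 CPM in zero palms (median 67.3 CPM). The fitted log2 fold change was 3.07 ± 0.49, with an edgeR adjusted p of 8.14e-05. The high palms were spread over 2 levels, at 1186 CPM to 1493 CPM in palms 1, 2, 5 and 7 and at 145 CPM to 235 CPM in palms 3, 4, 6 and 8, of which palm 8 alone lay within the range of the low palms.

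LOC105032802 showed the same split, at 201.4 CPM to 316 CPM in high palms 1, 2, 5 and 7 and at 74.3 CPM to 95.2 CPM in high palms 3, 4, 6 and 8, all above the 11.4 CPM to 61.3 CPM of low palms and the 14.8 CPM to 64.3 CPM of zero palms. Its log2 fold change was 2.76 ± 0.38, with an edgeR adjusted p of 2.82e-05. LOC105033878, in no module, stood at 27.0 CPM to 291.5 CPM in high palms (median 105 CPM), against 6.68 CPM to 41.8 CPM in low palms (median 17.5 CPM) and 4.34 CPM to 52.2 CPM in zero palms (median 5.61 CPM). On the log2 scale it rose by 2.92 ± 0.53, with an edgeR adjusted p of 0.000281. High palms 2, 3, 4 and 6 were the highest for it, at 154 CPM to 291.5 CPM, and high palms 1, 5 and 8, at 27.0 CPM to 47.5 CPM, lay within the range of the zero palms. With genotype as a term, the calls of all 4 genes ended, with log2 fold changes of 3.02, 2.74, 3.02 and 2.99 for LOC105047494, LOC105037705, LOC105032802 and LOC105033878 and adjusted p of 0.0938, 0.104, 0.0534 and 0.265 by edgeR.

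**Figure D4:**
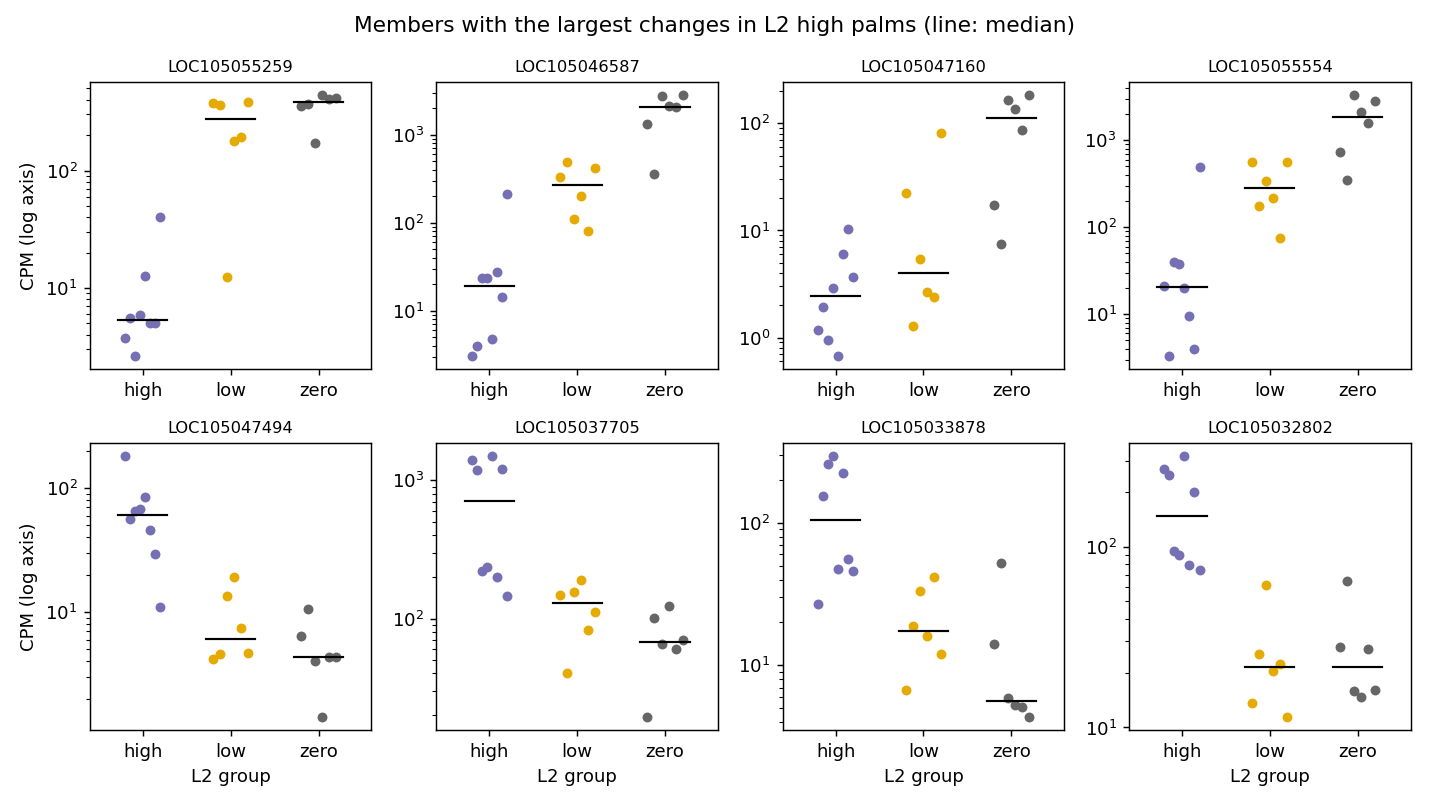
Each panel shows 1 of the 8 members with the largest called changes, with CPM on a log axis and 1 point per L2 InnuPREP palm in the high, low and zero groups; lines are medians. The 4 genes that fell have medians of 2.42 CPM to 20.6 CPM in high palms, and the 4 that rose have medians of 60.8 CPM to 710.4 CPM there.

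Of the first 10 genes by SD in L1, 9 were tested between high and zero-low palms and 6 were called, against 40.5% of all genes tested. LOC105054588 had a median of 1852 CPM in high palms, 223 CPM in low palms and 749 CPM in zero palms, a log2 fold change of 1.61 ± 0.62 with an edgeR adjusted p of 0.0435. As in L1 it had a wide gap, here among the high palms. High palms 1, 2, 5, 7 and 8 lay at 1396 CPM to 3534 CPM and high palms 3, 4 and 6 at 75.3 CPM to 196 CPM. The zero palms kept to 471 CPM to 915 CPM. LOC105036026 was at 0.837 CPM to 28.4 CPM in high palms, against 1.73 CPM to 229.7 CPM in low palms and 11.4 CPM to 138 CPM in zero palms, a log2 fold change of -2.34 ± 0.77 with an edgeR adjusted p of 0.0194. LOC105045379, a central gene of module 1, was at 222 CPM to 1644 CPM in high palms, against 29.5 CPM to 313 CPM in low palms and 99.8 CPM to 228 CPM in zero palms, a log2 fold change of 2.53 ± 0.50 with an edgeR adjusted p of 0.000516. LOC105044083, a central gene of module 3, was at 20.0 CPM to 169 CPM in high palms, against 105 CPM to 1562 CPM in low palms and 493.3 CPM to 1373 CPM in zero palms. Its log2 fold change was -3.37 ± 0.52, with an edgeR adjusted p of 6.58e-05, and low palm 3, at 105 CPM, was again the low palm within the range of the high palms.

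Split by group, 67 members were called between high and zero palms, against 35.9% of all genes tested, and 69 between high and low palms, against 28.1%. These comparisons share the high palms. Between high and low palms 39 members rose, against 13% of all genes, and 30 fell, against 15.1%. Module 1 held 29 of the 39. Between low and zero palms 2 members were called, against 0.176% of all genes tested, 1 higher (all genes 0.0784%) and 1 lower (all genes 0.098%). LOC105061153 fell by 2.34 on the log2 scale, with low palms at 1.22 CPM to 3.83 CPM and zero palms at 6.09 CPM to 13.6 CPM, and had an edgeR adjusted p of 0.0408. LOC105032887 rose by 1.26, with an edgeR adjusted p of 0.0199. All zero palms are Yangambi_A and no low palm is, so here the group and the genotype label cannot be told apart.

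Because every L1 library was a CTAB extract, the members were also followed across both extractions of the 6 L2 palms. With the palm as a block, 133 of the 200 members differed between CTAB and InnuPREP libraries (66.5%), against 53.8% of all genes tested. The direction was mostly downward. In CTAB libraries 109 members fell (54.5%), against 28.5% of all genes, and 24 rose (12%), against 25.3%. The median log2 fold change was -0.44 over the members tested and -0.03 over all genes. The fall ran through the sets, with 45 of 78 lower and 8 higher in module 1, 8 of 15 lower and 2 higher in module 3 and 10 of 11 lower and 0 higher in module 4, while module 5 had 3 of 8 in each direction. Without the palm as a block, 13 members (6.5%) were called, against 15% of all genes tested, so the members' share then lay below that of all genes. The CTAB libraries of L2 had plastid shares of 4.42% to 7.80% and multi-mapped shares of 17.1% to 34.2%, above most InnuPREP libraries. With plastid rows left out of the counts, 24 members rose and 110 fell, and the part of the multi-mapped share was not tested.

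**Figure D5:**
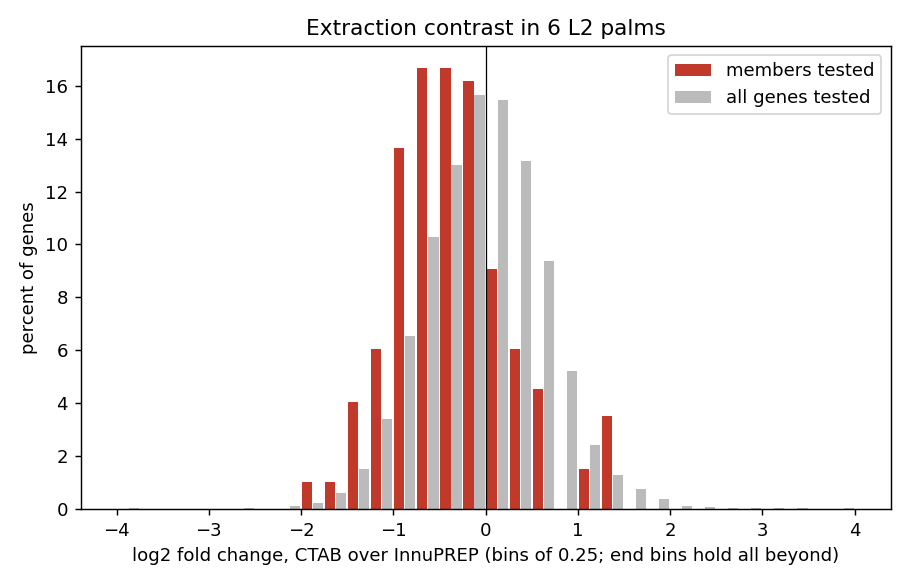
Percent of genes in bins of log2 fold change of CTAB over InnuPREP libraries of the same 6 L2 palms, for the members tested in red and for all genes tested in grey; the end bins hold everything beyond. The members' median is -0.44 and that of all genes -0.03.

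The largest falls reached about 4-fold. LOC105057212 of module 2 was at 4.09 CPM with CTAB and 12.99 CPM with InnuPREP in high palm 3, 6.49 CPM and 23.1 CPM in high palm 8, 18.7 CPM and 52.8 CPM in low palm 5, 8.06 CPM and 29.1 CPM in low palm 6, 7.42 CPM and 28.8 CPM in zero palm 2, and 11.2 CPM and 30.1 CPM in zero palm 6. It was lower with CTAB in 6 of 6 palms, with a log2 fold change of -1.96 ± 0.12 (SE) and an edgeR adjusted p of 2.08e-10. LOC105042084 fell by 1.76 ± 0.14 and LOC105031931 by 1.55 ± 0.12, with edgeR adjusted p of 3.80e-09 and 2.80e-09. LOC105043094 fell by 1.68 ± 0.38 with an edgeR adjusted p of 0.0112, but less evenly. It was at 74.8 CPM with CTAB and 74.0 CPM with InnuPREP in high palm 3, and at 15.4 CPM and 127 CPM in low palm 6.

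Among the members higher with CTAB, LOC105032287 of module 3 was at 30.5 CPM with CTAB and 7.59 CPM with InnuPREP in high palm 3, 20.7 CPM and 7.14 CPM in high palm 8, 23.1 CPM and 6.68 CPM in low palm 5, 18.0 CPM and 5.58 CPM in low palm 6, 11.2 CPM and 3.97 CPM in zero palm 2, and 16.6 CPM and 4.26 CPM in zero palm 6. The ranges of both extractions did not overlap, and its log2 fold change was 1.48 ± 0.13, with an edgeR adjusted p of 1.71e-08. LOC105055674, LOC105049590 and LOC105061153 rose by 1.47 ± 0.17, 1.35 ± 0.11 and 1.33 ± 0.15, with edgeR adjusted p of 1.42e-05, 3.67e-09 and 2.62e-07. Without the block, the calls of LOC105043094, LOC105031931 and LOC105061153 ended, with log2 fold changes of -1.59, -1.46 and 1.43 and edgeR adjusted p of 0.106, 0.0679 and 0.177.

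Differences between palms were largely kept across the extractions. Over the 6 palms the CTAB and InnuPREP values of a member had a median r of 0.96, against 0.84 over all rows, and an r of at least 0.8 was found in 174 members (87%), against 57.3% of all rows. The 4 members with an r below 0.5 were LOC105056707, LOC105032510, LOC105034684 and LOC105052309. For LOC105046587, whose palms differ most in L2, r was 0.999. The members also spread more widely over these palms, with a median SD of 0.981 in the CTAB libraries, against 0.411 over all rows, and its part in the higher r was not tested.

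Some members lie near each other in the genome. Of the 200, 191 have a place in the EG11 gene table, used here only for gene order, and 4 pairs stood at most 5 genes apart. Among all rows, 24394 such pairs were found over 12700 placed rows. Whether 4 is more or fewer than in other sets of 191 rows was not tested. LOC105057706 and LOC105057709, both in module 2, had an r of 0.73 over L1 palms and 0.56 over L2 palms, and LOC105041257 and LOC105041252, both in module 1, had 0.53 and 0.54. LOC105042067 with LOC105042017 and LOC105059044 with LOC105059047 had an r of 0.30 each in L1 and were in different sets. In L2 their r was below 0, at -0.34 and -0.21. The median L1 r over these 4 pairs was 0.41, against 0.09 over 24394 neighbouring pairs of all rows.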

How the data were processed

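The authors deposited raw counts, 1 whole number per gene and library, from 3' end reads of the 58 libraries. Tools named in the submitters' processing notes are HTSeq 0.11.2, STAR 2.7.2b and bcl2fastq. What each did, whether strand was used and which genome build was taken are not given in the sources used here. The 5 summary lines of each table entered neither library totals nor tests. Genes that share reads with near-identical copies are uncertain. The members, gene sets and tests were chosen with earlier results of these data known.

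CPM used the sum of gene counts and log2 values a pseudocount of 1. Fits used edgeR 4.0.16 in R 4.3.3 (TMM, filterByExpr, robust glmQLFit, glmQLFTest), with Benjamini-Hochberg adjustment over all genes tested and calls at an adjusted p below 0.05. Standard errors were derived from fold change and F. CTAB and InnuPREP libraries were blocked by palm, since the palm label pairs them. No pair of the 58 libraries, from 52 palms, held identical values. The fits were tested on simulated data.

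Named genes were the 10 members of largest SD, 3 central genes per module, 4 called members of largest fold change per direction in both L2 comparisons, the 5 largest gaps and neighbouring pairs. Gene lists and cell type markers set by product name could not be matched, and promoters and protein identity were not analysed here. The alternatives included RLE scaling, DESeq2 1.42.0, other filters, genotype as a term, no palm block and single palms left out.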

Additional observations from a re-analysis of the deposited data

Results flagged for a closer look

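Gaps between palms were checked on the log2 scale in 50 sets of 6 or 8 L2 values, which were the 8 genes of largest change between groups, the 8 of largest change between extractions and the 6 module means. In 3 sets 1 palm lay far from the others, and chance alone gives about 1 in 20. For LOC105055259 low palm 3 stood at 12.5 CPM, while the other 5 low palms lay between 178 and 380.5 CPM. It is the low palm labelled Yangambi_C. For the same gene zero palm 3 stood at 171 CPM, while the other 5 zero palms lay between 355 and 436 CPM. For LOC105046587 zero palm 2 stood at 359 CPM, below the 1305 to 2785 CPM of the other 5 zero palms.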

How the results depend on the processing

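Membership depended on the count limit and on the measure of spread. With at least 5 counts per library 133 of the 200 genes stayed members, with at least 30 counts 70, and with the median absolute deviation in place of the SD 127. Under the other scalings, pseudocounts and limits 171 to 192 stayed, and with each L1 palm left out 175 to 197. A count limit in every library removes genes that are near 0 in some palms, so the 200 leave out genes that are off in any L1 palm. Genotype as a term lowered the members called in L2 high against zero-low palms to 15, and 1241 of 22063 genes were then called. That fit sets high palms only against the low palms that share a genotype label with them, and high palm 8, alone in its label, does not enter. Without the replicate block, that is the pairing by palm, 13 members (6.5%) and 2875 of 19172 genes (15%) were called between CTAB and InnuPREP libraries. With single palms left out these counts ran from 67 to 82 and from 123 to 141. RLE scaling, DESeq2 and no filter on low counts gave 74 to 76 and 134. The 16 genes named for these comparisons kept their calls in all fits without a single palm, and no direction reversed. Without high palm 8 the log2 fold changes of LOC105055259, LOC105046587 and LOC105055554 moved to -5.63, -6.23 and -5.74. The largest module held 70 to 83 genes at other cluster heights and with Spearman's rho. The search for promoter motifs and for related proteins was not run.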
